A study of Mus musculus with 4 samples.

Results

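The Nodal ligand, its co-receptors and its feedback inhibitors were followed in iEpiSCs, mouse epiblast stem cells induced from embryonic stem cells, of genotype c-Jun-/- and wild type. The 10 genes were taken by symbol from the 29267 genes of each deposited table: the ligands Nodal and Gdf3, the co-receptors Tdgf1 and Cfc1, the nuclear partner Foxh1, the secreted inhibitors Cer1, Lefty1 and Lefty2, and the intracellular inhibitors Pmepa1 and Skil. All 10 were found, and all 10 were among the 12598 genes that passed the filter on low counts. There were 2 libraries of genotype c-Jun-/- and 2 of wild type, numbered 2 and 3 within each genotype, all read by RNA sequencing. Cells of both genotypes had been embryonic stem cells (ESCs) in 2i and LIF, were replated for 8 hours, and were then converted in medium holding 20 ng/ml Activin A, 20 ng/ml bFGF, 2 µM XAV939 and 2.5 µM IWR-1, with colonies at 4 to 5 days; they were then kept as EpiSC lines in Activin A and bFGF. The labels do not say whether the 2 libraries of a genotype came from separate cultures or clones, so the tests measure only the spread between these libraries, and a difference between genotypes cannot be told apart from a difference between lines.

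Nodal is a ligand of the TGF-beta family that keeps the epiblast pluripotent after implantation and patterns its front-to-back axis. It binds Activin receptors together with a co-receptor of the EGF-CFC family, and the receptors phosphorylate Smad2 and Smad3, which enter the nucleus and act with DNA-binding partners such as Foxh1. The pathway switches on its own inhibitors: Lefty proteins and Cer1 act outside the cell, Pmepa1 and Skil inside it. Activin A, supplied in the medium here, uses the same receptors and Smads but needs no EGF-CFC co-receptor.

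The libraries held 6341342 and 4666559 expected counts in the c-Jun-/- libraries, against 5027635 and 5339937 in the wild-type libraries. Jun, the targeted gene, had 28.9 and 29.6 CPM (library-scaled counts, TMM) in c-Jun-/- cells, against 106 and 121 CPM in wild-type cells (log2 fold change -1.96 ± 0.12). Reads of Jun were still counted in both c-Jun-/- libraries, and since the labels do not give the deleted part, this lower level does not by itself check the genotype. All 12 primed epiblast markers passed the filter; 9 fell in c-Jun-/- cells, among them Otx2 (-1.18 ± 0.11), Sox2 (-1.14 ± 0.16), Fgf8 (-1.08 ± 0.10) and Cdh2 (-0.58 ± 0.08), 1 rose (Pou5f1, 0.21 ± 0.06) and T and Nanog did not pass. Their median log2 fold change was -0.40, and their summed TPM (a level per length) was 2992 and 3033 in c-Jun-/- cells, against 3449 and 3437 in wild-type cells. Of 10 naive ESC markers, Nr0b1, Prdm14, Dppa3 and Tcl1 had no count in any library and Zfp42 had at most 0.18 TPM. The other 5 were tested, and Klf4, Esrrb and Tfcp2l1 did not pass. Klf2, which lies on chromosome 8, rose (1.05 ± 0.35). Tbx3 rose, with 18 and 14 counts in c-Jun-/- libraries against 0 in both wild-type libraries. It passed the filter only through the c-Jun-/- libraries, so once tested it could only be higher in them. The summed TPM of the naive list was 23.3 and 17.5 in c-Jun-/- cells, against 12.4 and 11.4 in wild-type cells. Across the transcriptome 1034 genes (8.21% of those tested) were higher and 922 (7.32%) were lower in c-Jun-/- cells, 15.5% in all, at an adjusted p under 0.05. The higher share includes genes of chromosome 8, and a fit without them called fewer genes higher. None of the 10 Nodal genes lies on chromosome 8.

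Of the 10 Nodal genes, 5 were lower in c-Jun-/- cells (Cer1, Cfc1, Lefty1, Lefty2 and Pmepa1), 1 was higher (Gdf3), and 4 did not pass the threshold (Nodal, Tdgf1, Foxh1 and Skil). The 3 secreted inhibitors all fell, while the main ligand and the main co-receptor differed little. A call in 6 of 10 genes stands beside 15.5% of all tested genes, and the median log2 fold change of the 10 was -0.35 beside 0.0015 over all tested genes. The genes were chosen with earlier results of these data known, so this contrast is a description and carries no test. Each of the 6 calls was kept in every one of the 15 alternative fits. In CPM the genotypes did not overlap for 9 of the 10 genes, 1 higher and 8 lower, beside 53.9% of all tested genes (27% higher and 26.9% lower). Fold changes are log2 ratios of c-Jun-/- over wild type with n = 2 libraries per genotype, ± is the standard error unless SD is given, and adjusted p-values are from edgeR's quasi-likelihood F test over all 12598 genes.

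**Figure D1:**
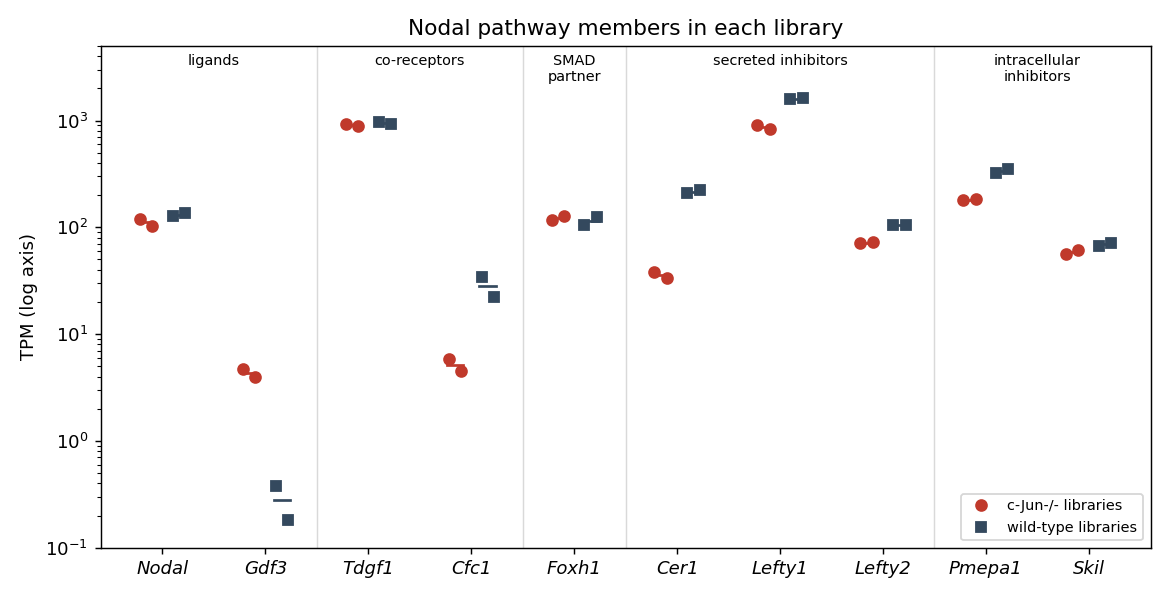
TPM of the 10 Nodal genes in each library (log axis; circles, c-Jun-/- libraries; squares, wild-type libraries; short lines, mean of 2 libraries), ordered by role. Lefty1 and Tdgf1 lie highest; Cer1, Cfc1, Lefty1, Lefty2 and Pmepa1 lie lower in both c-Jun-/- libraries, and Gdf3 lies higher, at 4.75 and 3.94 TPM in c-Jun-/- cells against 0.38 and 0.18 TPM in wild-type cells.

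By level per length the pathway was led by an inhibitor and a co-receptor. Averaged over 2 libraries, Lefty1 stood at 876 TPM in c-Jun-/- cells and 1605 TPM in wild-type cells, and Tdgf1 at 904 TPM in c-Jun-/- cells and 949 TPM in wild-type cells. Within a library the ratio of Lefty1 to Tdgf1 TPM was 0.995 and 0.941 in c-Jun-/- cells, against 1.65 and 1.73 in wild-type cells. In c-Jun-/- cells the next levels were Pmepa1 (181 TPM), Foxh1 (122 TPM) and Nodal (112 TPM), and the ranges of Foxh1 and Nodal overlapped. Lefty2 (71.6 TPM) and Skil (58.8 TPM) followed, then Cer1 and, at the low end, Cfc1 (5.18 TPM) and Gdf3 (4.34 TPM), whose ranges overlapped. In wild-type cells Pmepa1 (335 TPM) came next, then Cer1 with 216 TPM, above Nodal (132 TPM), Foxh1 (116 TPM), Lefty2 (105 TPM) and Skil (69.1 TPM). Cfc1 had 28.1 TPM and Gdf3 0.28 TPM in wild type.

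Nodal itself did not pass the threshold. It had 120 and 104 TPM in c-Jun-/- cells, against 127 and 137 TPM in wild-type cells, and on the count scale 126 and 113 CPM in c-Jun-/- cells against 131 and 143 CPM in wild-type cells. The genotypes did not overlap, but the gap between the nearest libraries was smaller than the gap within either genotype. The log2 fold change was -0.19 ± 0.09 (edgeR adjusted p = 0.16, 0.0985 to 0.574 over the alternative fits). Nodal (ENSMUSG00000037171) lies on the plus strand of chromosome 10, from 61417972 to 61425338 (GRCm38).

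Gdf3, a second ligand of the family that also works through EGF-CFC co-receptors, was the member that rose. Its expected counts were 32 and 20 in c-Jun-/- libraries, against 2 and 1 in wild-type libraries. Pooled over libraries this is 52 counts against 3, a ratio of 16.6 after scaling (exact 95% interval 5.36 to 82.9, counting error only). The fitted log2 fold change was 3.93 ± 0.76 (edgeR adjusted p = 0.000272). With wild type near the limit of detection its size depended on the scale, from 2.06 for log2(TPM + 1) to 4.503 without wild-type replicate 2. Gdf3 remained a minor ligand transcript. It made up 3.82% and 3.65% of the summed Gdf3 and Nodal TPM in c-Jun-/- cells, against 0.299% and 0.131% in wild-type cells. Gdf3 (ENSMUSG00000030117) occupies bases 122605403 to 122610087 of chromosome 6, minus strand. It passed the filter through its level in the c-Jun-/- libraries, which favours a rise. Its p-value and its call in the alternative fits share that limit.

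The co-receptors went apart. Tdgf1, which encodes Cripto, had 922 and 886 TPM in c-Jun-/- cells, against 965 and 933 TPM in wild-type cells. In CPM the values were 882 and 876 in c-Jun-/- cells and 906 and 885 in wild-type cells, with a log2 fold change of -0.027 ± 0.048 (edgeR adjusted p = 0.785). This was the smallest difference among the 10 genes. Tdgf1 (ENSMUSG00000032494) spans bases 110939603 to 110946158 of chromosome 9, minus strand. Cfc1, which encodes Cryptic, a relative of Cripto known for its role in left-right patterning, had 5.84 and 4.53 TPM in c-Jun-/- cells, against 33.9 and 22.3 TPM in wild-type cells. Both c-Jun-/- libraries were far below both wild-type libraries. The wild-type libraries differed from each other by more than the c-Jun-/- libraries did. Its counts were 17 and 10 in c-Jun-/- libraries and 78 and 55 in wild-type libraries, and the pooled ratio was 0.194 (exact 95% interval 0.123 to 0.295, counting error only). The log2 fold change was -2.37 ± 0.39 (edgeR adjusted p = 2.83e-05). Cfc1 was 0.629% and 0.509% of the summed co-receptor TPM in c-Jun-/- cells, against 3.39% and 2.33% in wild-type cells. Summed co-receptor TPM, most of it Tdgf1, was 928 and 891 in c-Jun-/- cells and 999 and 955 in wild-type cells. The far end of Cfc1 (ENSMUSG00000026124, plus strand of chromosome 1, 34535648 to 34544313) overlaps Prss40 on the opposite strand, which had 0 counts in every library; with strand not stated, their reads cannot be told apart.

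Foxh1, a forkhead factor that recruits Smad2 complexes to DNA, did not pass the threshold. It had 116 and 128 TPM in c-Jun-/- cells, against 105 and 126 TPM in wild-type cells, and the genotypes overlapped. The log2 fold change was 0.11 ± 0.12 (edgeR adjusted p = 0.606), and its sign turned without wild-type replicate 2 (-0.023). Foxh1 (ENSMUSG00000033837) spans bases 76668225 to 76669948 of chromosome 15, minus strand.

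**Figure D2:**
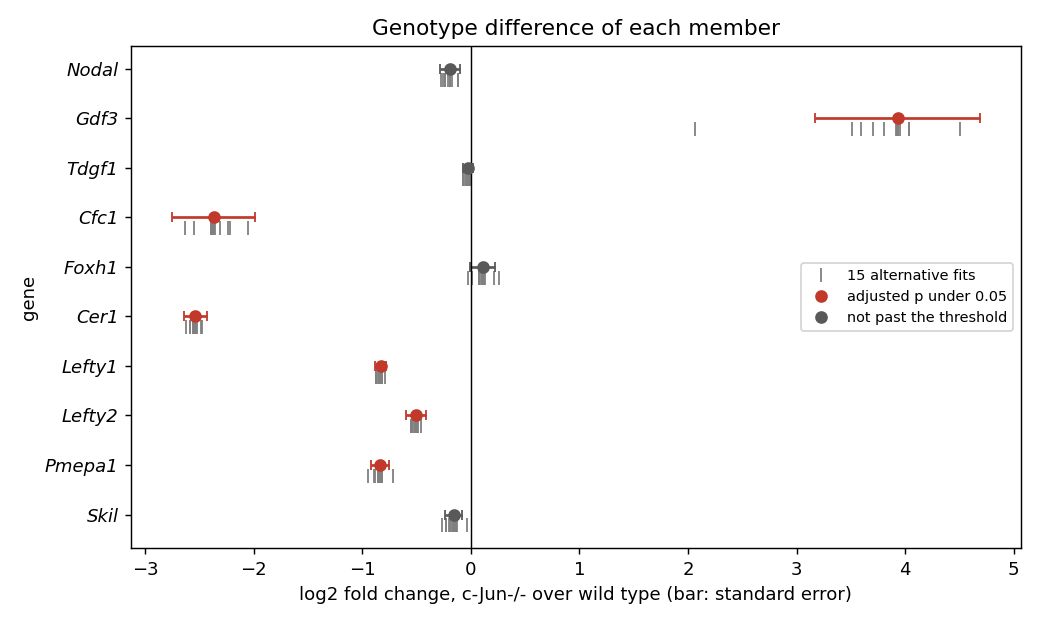
Log2 fold change of each member, c-Jun-/- over wild type (points; bars, standard error), with the values of the 15 alternative fits as ticks below each point; red, adjusted p under 0.05. Cer1 and Cfc1 lie below -2, Lefty1, Lefty2 and Pmepa1 between -0.9 and -0.5, and Gdf3 at 3.93.

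Cer1 showed the largest fall of the inhibitors. It encodes a secreted cysteine-knot protein that binds Nodal and blocks it from its receptors. Its levels were 38.5 and 33.5 TPM in c-Jun-/- cells, against 211 and 222 TPM in wild-type cells. In CPM it averaged 31.2 ± 2.3 in c-Jun-/- cells and 182 ± 7.97 in wild-type cells (SD, n = 2 each), so the libraries of a genotype lay close together and the genotypes far apart. The log2 fold change of -2.54 ± 0.11 ranked 2 by p-value among 12598 genes (edgeR adjusted p = 1.63e-17). Cer1 (ENSMUSG00000038192) occupies bases 82881751 to 82885148 of chromosome 4, minus strand.

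The Lefty pair fell less than Cer1. Both proteins bind Nodal and its co-receptors, and their genes sit side by side on the plus strand of chromosome 1, Lefty2 (ENSMUSG00000066652) from 180893108 to 180899103 and Lefty1 (ENSMUSG00000038793) from 180935022 to 180938400. Lefty1 had 918 and 834 TPM in c-Jun-/- cells, against 1594 and 1616 TPM in wild-type cells. Its log2 fold change was -0.83 ± 0.05 (edgeR adjusted p = 5.17e-14). Lefty2 had 70.7 and 72.6 TPM in c-Jun-/- cells, against 105 and 104 TPM in wild-type cells. For Lefty2 the log2 fold change was -0.51 ± 0.09 (edgeR adjusted p = 0.000128). In neither gene did the genotypes overlap. Lefty1 made up most of the pair's transcript in every library, with 92.9% and 92.0% of summed Lefty TPM in c-Jun-/- cells and 93.8% and 93.9% in wild-type cells. The share differed by -1.46 percentage points (exact two-sided permutation p = 0.333, the smallest that 2 libraries against 2 allow). Reads could be split between them: 11.7% of the distinct 75-base windows in Lefty1 transcripts also occur in Lefty2, and 7.77% of those in Lefty2 also occur in Lefty1. For Cfc1 22.4% of such windows were shared, with Prss40, and for Tdgf1 5.99%, with a pseudogene not analysed here. Nodal, Gdf3, Foxh1, Pmepa1 and Skil shared none, and Cer1 0.12%. The length of a read is not stated beyond a kit of 75 cycles, and shorter reads share more. With 36-base windows the shared part was 23.5% for Lefty1, 16.3% for Lefty2, 25.4% for Cfc1, 11.5% for Tdgf1, 2.68% for Gdf3 and 2.59% for Cer1, and still none for the other 4.

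Relative to their ligand the secreted inhibitors were lower in c-Jun-/- cells. The summed TPM of Cer1, Lefty1 and Lefty2 was 1027 and 940 in c-Jun-/- cells, against 1910 and 1942 in wild-type cells. Divided by the Nodal TPM of the same library, this gave 8.58 and 9.04 in c-Jun-/- cells, against 15.1 and 14.2 in wild-type cells. A ratio within a library does not depend on how libraries are scaled. The means were 8.81 ± 0.33 in c-Jun-/- cells and 14.6 ± 0.65 in wild-type cells (SD, n = 2 each), and the exact two-sided permutation p was 0.333, which 2 libraries against 2 cannot go below. By gene, Lefty1 stood at 7.67 and 8.02 times the Nodal TPM in c-Jun-/- cells, against 12.6 and 11.8 in wild-type cells. Cer1 stood at 0.322 and 0.323 times the Nodal TPM in c-Jun-/- cells, against 1.67 and 1.62 in wild-type cells. The ratio of Tdgf1 to Nodal TPM was 7.71 and 8.53 in c-Jun-/- cells and 7.63 and 6.81 in wild-type cells. These ratios are of transcripts, and protein was not measured.

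**Figure D3:**
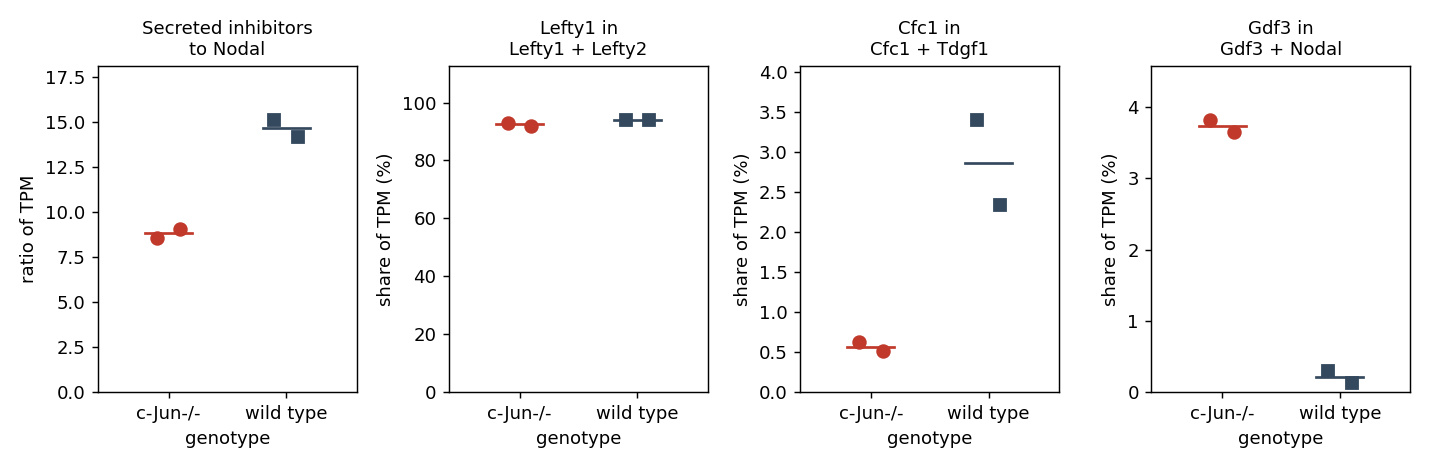
Ratios formed within each library from TPM (points, libraries; lines, means of 2): summed Cer1, Lefty1 and Lefty2 over Nodal, and the share of Lefty1, Cfc1 and Gdf3 in their pairs, for c-Jun-/- and wild-type cells. The inhibitor-to-Nodal ratio is 8.58 and 9.04 in c-Jun-/- cells and 15.1 and 14.2 in wild-type cells; the Lefty1 share stays above 90% in all 4 libraries, on an axis that starts at 0.

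Of the intracellular inhibitors, Pmepa1 fell and Skil did not pass. Pmepa1, a membrane protein induced by TGF-beta that holds Smad2 and Smad3 away from the receptor, had 179 and 184 TPM in c-Jun-/- cells, against 321 and 350 TPM in wild-type cells. Its log2 fold change was -0.84 ± 0.08 (edgeR adjusted p = 2.66e-09). Skil encodes SnoN, a nuclear corepressor that binds Smads. It had 56.7 and 60.9 TPM in c-Jun-/- cells, against 66.2 and 72.0 TPM in wild-type cells. In CPM, Skil had 184 and 175 in c-Jun-/- cells and 217 and 185 in wild-type cells, where the nearest libraries of the genotypes nearly touched. The log2 fold change of Skil was -0.16 ± 0.08 (edgeR adjusted p = 0.206, 0.0595 to 0.866 over the alternative fits). The ratio of Pmepa1 to Skil TPM was 3.15 and 3.01 in c-Jun-/- cells, against 4.85 and 4.86 in wild-type cells. Only Lefty1, Pmepa1 and Skil have a deposited mean transcript length that varied between libraries, as it does when the mix of isoforms shifts. For Skil it was 6030 and 5206 bases in c-Jun-/- cells and 6210 and 4846 bases in wild-type cells, and for Pmepa1 1560 and 1514 bases in c-Jun-/- cells and 1487 and 1558 bases in wild-type cells, so neither separated the genotypes. Pmepa1 (ENSMUSG00000038400) occupies bases 173224458 to 173276533 of chromosome 2, minus strand, and Skil (ENSMUSG00000027660) on the plus strand of chromosome 3, from 31095058 to 31122577.

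The promoter windows of 4 members were in the RefSeq table used here (GRCm38.p6): Cer1 and Cfc1, the members with the largest falls, and Nodal and Tdgf1, which did not pass. They are shown so that the pairs with and without a change can be read against each other. Each is the 250 bases before the start, on the strand of the gene, at chr4:82885152-82885401 for Cer1 (minus), chr1:34535398-34535647 for Cfc1 (plus), chr10:61417722-61417971 for Nodal (plus) and chr9:110946159-110946408 for Tdgf1 (minus). Capitals mark matches to CAGAC, the core recognised by Smad proteins, on either strand.
Cer1: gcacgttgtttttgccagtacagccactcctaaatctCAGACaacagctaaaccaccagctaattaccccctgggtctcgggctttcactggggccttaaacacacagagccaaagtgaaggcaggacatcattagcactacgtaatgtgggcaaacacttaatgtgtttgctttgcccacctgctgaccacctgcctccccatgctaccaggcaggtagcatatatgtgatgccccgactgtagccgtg
Cfc1: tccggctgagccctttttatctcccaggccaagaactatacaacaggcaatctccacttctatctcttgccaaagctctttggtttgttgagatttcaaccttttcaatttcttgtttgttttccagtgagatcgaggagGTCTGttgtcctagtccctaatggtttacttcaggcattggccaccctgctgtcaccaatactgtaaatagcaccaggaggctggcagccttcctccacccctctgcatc
Nodal: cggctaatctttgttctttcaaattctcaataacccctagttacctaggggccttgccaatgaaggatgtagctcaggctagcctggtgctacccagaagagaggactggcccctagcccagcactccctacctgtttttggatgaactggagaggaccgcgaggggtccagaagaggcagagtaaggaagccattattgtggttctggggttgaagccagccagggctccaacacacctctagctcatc
Tdgf1: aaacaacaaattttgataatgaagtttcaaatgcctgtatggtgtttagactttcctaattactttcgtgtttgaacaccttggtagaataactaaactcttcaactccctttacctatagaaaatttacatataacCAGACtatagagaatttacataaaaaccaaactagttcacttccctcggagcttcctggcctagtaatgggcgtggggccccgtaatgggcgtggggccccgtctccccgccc
The match lies 213 to 209 bases before the start in Cer1, 110 to 106 bases before it in Cfc1 (minus strand) and 113 to 109 bases before it in Tdgf1, and Nodal has none in this window. This core occurs in 42.2% of the 32817 windows of the table, so a match is common. A search on both strands for AATNCACA (the Foxh1 motif), TGANTCA (the AP-1 motif that Jun dimers bind) and TGACGTCA (the related CRE-type motif) found none in these 4 windows, where 3.18%, 6.75% and 1.55% of all windows hold one. Gdf3, Foxh1, Lefty1, Lefty2, Pmepa1 and Skil had no entry in the table.

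Some of the genes next to the members also passed the threshold. The nearest tested gene on either side was taken, a choice made after the data were seen. Of 18 such neighbours reported here, 1 was higher and 3 were lower in c-Jun-/- cells. This 22.2% lies near the 15.5% called over all tested genes, so the neighbours are listed as a description only. Apobec1, which encodes a cytidine deaminase and lies 3.0 kb from Gdf3, also rose, to 7.54 CPM in c-Jun-/- cells against 1.147 CPM in wild-type cells (log2 fold change 2.70 ± 0.52, edgeR adjusted p = 0.000263). Like Gdf3, Apobec1 passed the filter through its level in the c-Jun-/- libraries. On the other side of Gdf3, 97.4 kb away, Nanog did not pass (-0.15 ± 0.09). Frem1, which encodes a basement membrane protein and lies 12.8 kb from Cer1, also fell, to 8.87 CPM in c-Jun-/- cells against 21.4 CPM in wild-type cells (-1.29 ± 0.24, edgeR adjusted p = 0.000169). Zdhhc21, 21.8 kb from Cer1 on the other side, did not pass (-0.23 ± 0.10). Tmem63a, 3.9 kb beyond Lefty1, fell to 96.8 CPM in c-Jun-/- cells, against 131 CPM in wild-type cells (-0.44 ± 0.09, edgeR adjusted p = 0.000791). Sde2, 25 kb beyond Lefty2, did not pass (-0.13 ± 0.11). The other lower neighbour was Ppp1r16a (-0.55 ± 0.14), 1.7 kb from Foxh1. The neighbours of Cfc1, Ptpn18 at 59.9 kb and Arhgef4 at 133.9 kb, did not pass, with log2 fold changes of 0.93 ± 0.68 and 0.49 ± 0.34.

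**Figure D4:**
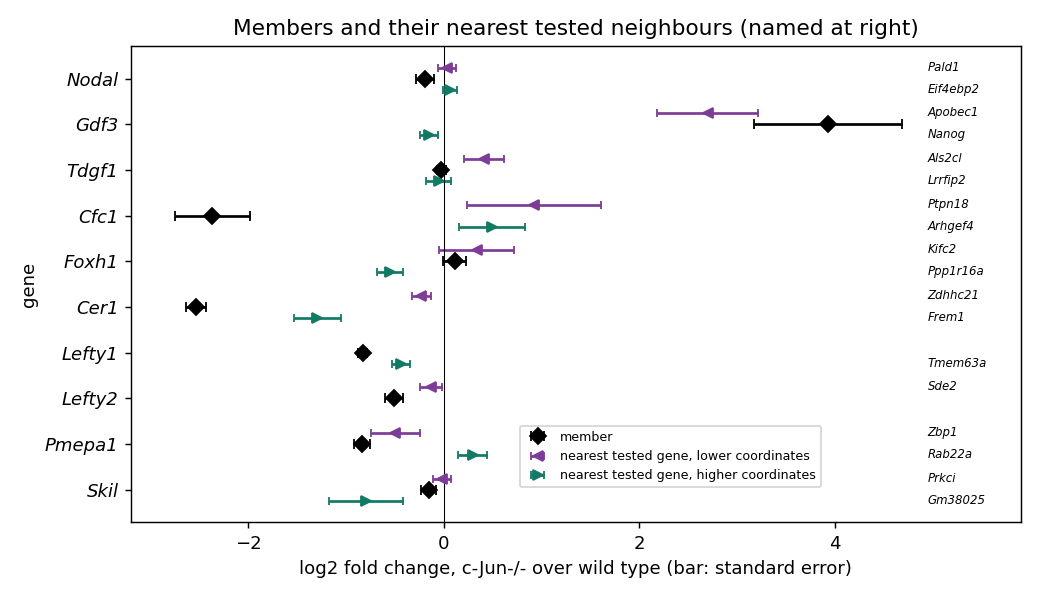
Log2 fold change, c-Jun-/- over wild type, of each member (diamonds) and of the nearest tested gene on either side, where reported (triangles), with standard errors; neighbour names are at the right of each row. Apobec1 lies high beside Gdf3, and Frem1 lies low beside Cer1, while both neighbours of Nodal lie near 0.

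Of 9 tested receptors and Smads of the TGF-beta family, 3 fell, none rose and 6 did not pass, a call in 33.3% beside 15.5% of all tested genes (edgeR; at an unadjusted p under 0.05 also 3 lower and 0 higher, and 3 lower and 0 higher with DESeq2 and limma voom), with a median log2 fold change of -0.22. Acvr1b, the type I receptor ALK4 used by Nodal and Activin, had 20.7 and 25.2 TPM in c-Jun-/- cells, against 35.2 and 35.8 TPM in wild-type cells (-0.60 ± 0.12, edgeR adjusted p = 0.000423). Acvr1b no longer passed on either of the TPM scales (limma adjusted p = 0.114 for log2(TPM + 1)). It was the one receptor of Nodal and Activin that passed; the other 2 that fell are receptors of TGF-beta. Tgfbr1, a type I receptor of TGF-beta, had a log2 fold change of -0.46 ± 0.11. Tgfbr3, the TGF-beta co-receptor betaglycan, fell by 1.46 on the log2 scale (± 0.14), to 7.22 and 10.6 TPM in c-Jun-/- cells against 23.4 and 25.1 TPM in wild-type cells. The call of Tgfbr1 was lost on both TPM scales, with offsets for effective length, and without wild-type replicate 2 (log2 fold change -0.39). Smad2 (0.016 ± 0.121), Smad3 (0.079 ± 0.115) and Smad4 (0.036 ± 0.086), the signal carriers, did not pass (Smad3 and Smad4 turned negative on the TPM scale, at -0.31 and -0.36 for log2(TPM + 1)), nor did the type II receptors Acvr2a and Acvr2b. Acvr1c had 0 counts in every library.

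No other gene listed with the ligands of the Smad2 and Smad3 branch passed. Of 6 tested, 0 were higher and 0 lower, beside 15.5% of all tested genes called (edgeR). DESeq2 and limma voom also called 0, as did edgeR at an unadjusted p under 0.05. With 6 genes, 0 calls cannot be told apart from that share. Inhbb, Inha, Gdf11 and Tgfb3 had at most 49 counts in a library. The highest of the 6 was Tgfb1, at 82.9 and 91.4 TPM in c-Jun-/- cells and 75.6 and 99.6 TPM in wild-type cells. Tgfb2 (-0.52 ± 0.26) and Inha (-0.045 ± 0.357) did not pass. Inha encodes the alpha subunit of inhibins, which oppose Activin, and is counted here only as part of the list. Inhba and Inhbe were below the filter, Mstn had 0 counts, and Gdf1 was not analysed here. Of 11 tested extracellular regulators, 3 fell and none rose, 27.3% called beside 15.5% of all tested genes (edgeR; 4 lower and 2 higher at an unadjusted p under 0.05; 3 lower and 0 higher with DESeq2 and limma voom). These were Furin, a convertase that cleaves the Nodal precursor (-0.59 ± 0.12, edgeR adjusted p = 0.000286), Fstl1 (-0.44 ± 0.09) and the endocytic receptor gene Lrp2 (-0.52 ± 0.13). The call of Furin was lost without wild-type replicate 3 and that of Lrp2 without wild-type replicate 2. Calls of Furin, Fstl1 and Lrp2 were also lost on both TPM scales and with offsets for effective length. Fst, which encodes the Activin-binding follistatin (0.20 ± 0.12), Tmeff1 (-0.23 ± 0.10) and Nomo1 (-0.047 ± 0.071) did not pass.

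Inside the cell, of 15 tested Smad regulators 2 fell, 1 rose and 12 did not pass, and this 20% lies near the 15.5% called over all tested genes. Tgif1, a corepressor of Smad complexes, had a log2 fold change of -0.34 ± 0.08 (edgeR adjusted p = 0.0046). Ldlrad4, a relative of Pmepa1, stood at -0.77 ± 0.25 (edgeR adjusted p = 0.0341) and Fam83g at 0.46 ± 0.14 (edgeR adjusted p = 0.0179). The call of Ldlrad4 was lost without any of the 4 libraries, that of Fam83g without all but wild-type replicate 3, and that of Tgif1 without c-Jun-/- replicate 2 or wild-type replicate 2. Each of these calls was also lost on both TPM scales and with offsets for effective length. Those of Ldlrad4 and Fam83g were also lost with DESeq2. Ski, the paralog of Skil (-0.14 ± 0.07), Trim33 (-0.017 ± 0.074) and Usp9x (-0.14 ± 0.06) did not pass.

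Among genes known as targets of Nodal or of Smad2 and Smad3, without the members, 9 of the 18 reported here fell, 1 rose and 8 did not pass, with a median log2 fold change of -0.24. The 55.6% called stand beside 15.5% of all tested genes, of which 7.32% were lower. The fallers were led by the organizer factors Gsc, at 11.6 and 5.69 TPM in c-Jun-/- cells against 34.8 and 39.4 TPM in wild-type cells (-2.02 ± 0.28, and -2.63 without c-Jun-/- replicate 2), and Lhx1 (-1.30 ± 0.09). Sox17 (-1.24 ± 0.22), Otx2 (-1.18 ± 0.11), Fgf8 (-1.08 ± 0.10), Cxcr4 (-0.99 ± 0.20), Hhex (-0.83 ± 0.19), Eomes (-0.48 ± 0.11) and Fgf5 (-0.33 ± 0.07) also fell. The target list shares genes with the marker lists. Eomes, Fgf8, Otx2 and Fgf5 are also among the primed epiblast markers, and Sox17, Cxcr4 and Hhex among the definitive endoderm markers. The falls counted in these lists are therefore not independent of each other. Mixl1 rose (0.56 ± 0.18), a call lost without c-Jun-/- replicate 2 or without either wild-type replicate, and with DESeq2. The call of Fgf5 was lost without wild-type replicate 2. Calls of Fgf5, Eomes, Hhex, Cxcr4 and Mixl1 were also lost on both TPM scales and with offsets for effective length. T, which encodes Brachyury, had 1214 and 1261 TPM in c-Jun-/- cells and 1211 and 1235 TPM in wild-type cells (0.025 ± 0.049). Foxa2 (-0.042 ± 0.083) and Nanog (-0.15 ± 0.09) did not pass either.

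**Figure D5:**
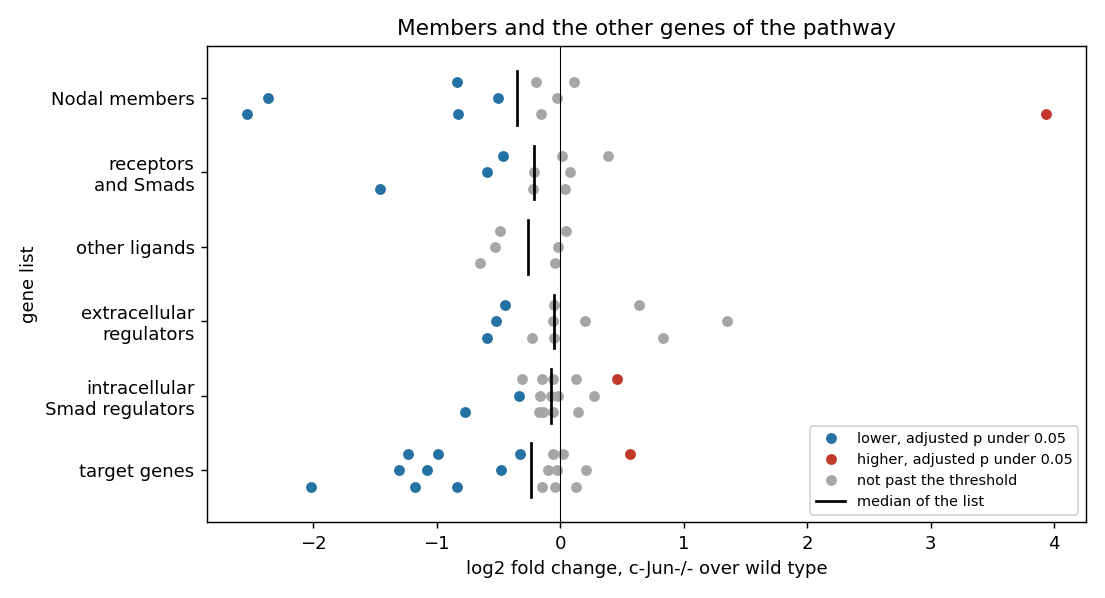
Log2 fold change, c-Jun-/- over wild type, of each tested gene in the member list and in 5 lists of other pathway genes (points; offsets within a row only separate points; black bars, list medians). Blue points passed the threshold below 0 and red points above it. Lower were 9 of 18 target genes and 3 of 9 receptors and Smads, beside 7.32% of all tested genes. None of the 6 genes listed as other ligands passed, beside 15.5% of all tested genes called in either direction.

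Cer1 and Lefty1 are also made by visceral and definitive endoderm, so markers of these cells were read in the same libraries. The calls in each marker list stand beside 15.5% of all tested genes, 8.21% higher and 7.32% lower. Of 12 visceral and other extraembryonic endoderm markers, 4 passed the filter, of which Gata6 fell (-1.15 ± 0.36) and 3 did not pass the threshold. Afp and Ttr, which define visceral endoderm, had 0 counts in every library, and the summed TPM of the list was 56.1 and 58.0 in c-Jun-/- cells, against 42.3 and 73.7 in wild-type cells, so the genotypes overlapped. Of these sums, Apoa2 alone gave 29.9 and 28.0 TPM in c-Jun-/- cells and 13.0 and 33.3 TPM in wild-type cells. It had only 9 to 29 counts in a library, so the sums rest much on this low gene. Of 6 definitive endoderm markers, 4 fell (Sox17, Cxcr4, Cpm and Hhex), 1 rose (Trh) and Foxa2 did not pass. The summed TPM of that list, most of it Trh, was 1260 and 1230 in c-Jun-/- cells and 625 and 642 in wild-type cells. Neural markers went the other way: of 5 tested, 4 rose in c-Jun-/- cells and Nes did not pass (0.014 ± 0.068), while Hes5 had 0 counts in every library. The 4 were Pax6 (2.13 ± 0.74), Tubb3 (2.13 ± 0.48), Zic1 (1.33 ± 0.33) and Sox1 (1.25 ± 0.25). Pax6 had 13 and 19 counts in c-Jun-/- libraries, against 5 and 2 in wild-type libraries (edgeR adjusted p = 0.049). Pax6 and Tubb3 passed the filter through their levels in the c-Jun-/- libraries, which favours a rise. Sox1 and Tubb3 lie on chromosome 8, and a difference of that chromosome as a whole was not tested. The median of the 5 was 1.33, and the summed TPM of the list, most of it Nes, was 124 and 138 in c-Jun-/- cells, against 108 and 113 in wild-type cells. Of 4 tested trophoblast markers Krt7 and Krt18 fell, of 5 fibroblast markers Col3a1 rose and Dcn fell, and the 2 tested mesoderm markers did not pass. Col3a1 also passed the filter through its level in the c-Jun-/- libraries. In these bulk libraries fewer cells of a type and less RNA per cell cannot be told apart, and the part of endoderm, neural or other cells in the differences of the Nodal genes was not tested.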

How the data were processed

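RNA was sequenced from 4 iEpiSC libraries, grouped by the genotype given in the sample titles and labels. Per the labels' protocols, TRIzol RNA was made into libraries with an Illumina TruSeq kit; strand is not stated, so overlapping antisense genes cannot be told apart. The submitters' processing notes name build mm10 with the tools bcl2fastq, Bowtie2 and RSEM. The annotation release was not given in these sources. The authors deposited, per the file headers, an expected count, TPM, FPKM and mean and effective lengths in bases for each gene and library. The deposited FPKM values were not tested. Positions and symbols are those of GENCODE M21 (GRCm38; 28756 of 29267 genes matched).

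Expected counts were rounded, filtered with filterByExpr (minimum count 10, total 15) and TMM-scaled, and the genotypes were compared by glmQLFit and glmQLFTest in edgeR 4.0.16 (R 4.3.3), without covariates, with Benjamini-Hochberg adjustment at 0.05. A count of 3, the limit for a count of 0, is 0.473 to 0.643 CPM. Intervals are exact Clopper-Pearson (95%) and, like this floor, cover counting error only. Alternatives used RLE or total counts, DESeq2 1.42.0, limma 3.58.1 (voom, or a trend on log2(TPM + 1) or log2(TPM + 0.1)), other filters, a replicate block, effective lengths, no chromosome 8 genes, or 1 library fewer. Libraries of a genotype differed by more than sampling noise (chi-square over its degrees of freedom 2.51 in c-Jun-/- and 2.55 in wild type). The fit was tested on simulated data. Members and lists were chosen with earlier results of these data known; in each list all called genes and up to 3 others of highest CPM are named. Neighbouring genes, Jun, marker values, the type II receptors and list genes below the filter were named outside that rule, after their values were seen. Some genes of these lists and next to the members are not reported here and are left out of the list and neighbour counts, but stay in the fit.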

Additional observations from a re-analysis of the deposited data

How the results depend on the processing

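The 1 higher and 5 lower calls among the 10 Nodal genes, and the absence of a call for the other 4, were the same in all 15 alternative fits. The sign of Foxh1 turned without wild-type replicate 2 (-0.0231). Leaving out 1 library in turn moved the log2 fold changes of the members over these ranges: Nodal -0.277 to -0.1208, Gdf3 3.51 to 4.503, Tdgf1 -0.040 to -0.0125, Cfc1 -2.63 to -2.05, Foxh1 -0.0231 to 0.2597, Cer1 -2.62 to -2.47, Lefty1 -0.87 to -0.79, Lefty2 -0.55 to -0.46, Pmepa1 -0.94 to -0.72 and Skil -0.27 to -0.038. The differences of the ratios within a library kept their sign without any library and in CPM. Counts of calls moved more. Over all genes, 650 were higher and 473 lower with DESeq2, 250 and 170 with log2(TPM + 1), 224 and 150 with log2(TPM + 0.1), 498 and 341 with effective length offsets, and 673 were higher without chromosome 8 genes, against 1034 and 922; without 1 library, 762 to 854 were higher and 575 to 788 lower. With either TPM scale the lower calls were 1 receptor or Smad, 0 extracellular regulators (2 at an unadjusted p under 0.05), 0 intracellular regulators (2 unadjusted) and 5 targets. With effective length offsets they were 0 extracellular regulators (3 unadjusted), 0 intracellular regulators (2 unadjusted) and 5 targets, and with DESeq2 1 intracellular regulator. Higher calls among intracellular regulators were 0 with DESeq2, either TPM scale and length offsets (2, 0 and 1 unadjusted), and 2 with the replicate block or without chromosome 8 genes; among targets they were 0 with DESeq2, either TPM scale and length offsets (1 unadjusted in each). Without 1 library, intracellular regulators had 0 to 1 higher and 0 to 1 lower calls, and targets 0 to 1 higher and 8 to 9 lower. The cause was not tested.

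Genes that did not pass changed sign as follows, with log2 fold changes: Smad2 with total counts (-0.0054) and without wild-type replicate 3 (-0.0051); Smad3 with log2(TPM + 1) (-0.306), log2(TPM + 0.1) (-0.3107) and length offsets (-0.2713), and without c-Jun-/- replicate 2 (-0.0161) or wild-type replicate 3 (-0.0496); Smad4 with log2(TPM + 1) (-0.3619), log2(TPM + 0.1) (-0.3643) and length offsets (-0.334), and without wild-type replicate 2 (-0.0359). Inha turned without c-Jun-/- replicate 3 (0.1501) or wild-type replicate 3 (0.059), Tgfb1 without c-Jun-/- replicate 3 (-0.0408) or wild-type replicate 2 (-0.1253), Nomo1 without c-Jun-/- replicate 2 (0.0087), Trim33 without chromosome 8 genes (0.0012) and Foxa2 without wild-type replicate 3 (0.0405). Without 1 library these genes reached, at the other end of their ranges, 0.0383 (Smad2), 0.2195 (Smad3), 0.1148 (Smad4), -0.3067 (Inha), 0.2556 (Tgfb1), -0.1 (Nomo1) and -0.1177 (Foxa2). Over the 34 other named genes, 435 values kept direction and call and 57 lost their call.

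The replicate numbers 2 and 3 share no stated origin, and the deviations of same-numbered libraries were barely correlated (r = 0.022 across genes), so they were not treated as pairs. With the replicate block 1250 genes were higher and 1127 lower, and the calls among the Nodal genes were unchanged. Depth limits Gdf3 in wild type (3 counts) and Cfc1 in c-Jun-/- cells (27 counts).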
